A study of Mus musculus with 8 samples.

Results

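The genes described here encode the moving parts of motile cilia. They were the rows of a polysome RNA table whose symbols name axonemal dynein chains, dynein assembly factors, radial spoke proteins, members of the nexin-dynein regulatory complex, central pair proteins or tektins, plus Hydin, Foxj1 and Rfx3. The naming rule used no measured value and matched 39 of 21765 rows. Of these, 35 had a mean deposited level of at least 1 TPM (transcripts per 1000000, a level per transcript length) and were tested.

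RNA was sequenced from polysomes, messenger RNAs loaded with ribosomes, of the mouse main olfactory epithelium, the nasal tissue that holds the olfactory sensory neurons. Tissue received 100 µg/mL cycloheximide, which arrests ribosomes on their transcripts, and its lysates were spun through sucrose gradients. Fractions 27 to 34 formed the early (lighter) polysomes and fractions 35 to 42 the late (heavier) polysomes, so a transcript shifted towards late fractions lay on heavier particles. Wild-type (WT) mice were labelled Mex3a flox/flox or Mex3a flox/+ without Cre, and conditional knockout (cKO) mice Mex3a flox/flox with Cre, which removes this RNA-binding protein gene. WT early, WT late, cKO early and cKO late had 2 libraries each. The early and late library of a genotype and number came from 1 lysate, as the library names give it. The labels state neither the age of the mice, nor how many were used per lysate, nor whether lysates came from separate animals, so p-values measure the spread between these samples, which may be technical. Flox/+ and flox/flox WT mice are not told apart. The series' design text describes sorted cells and reporter transgenes that the labels of these 8 libraries do not mention.

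A motile cilium beats when dynein motors slide neighbouring doublet microtubules of its axoneme past each other. Outer arm dyneins set power and beat frequency, inner arm dyneins shape the bend, and both are built from very large heavy chains with smaller intermediate and light chains, after preassembly in the cytoplasm by dedicated factors. Radial spokes carry signals from the central pair to the arms, the nexin-dynein regulatory complex ties doublets together, and tektins are filament proteins bound to the doublets. Foxj1 and Rfx3 are transcription factors that switch on these genes. In the nasal cavity, multiciliated cells of the respiratory lining bear motile cilia, while the cilia of olfactory sensory neurons carry odorant receptors and in mice do not beat actively.

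In bulk tissue, fewer cells of a type and less RNA per cell cannot be told apart. Inferred depth was 7776792 to 12771079 reads per library, lowest in cKO late replicate 2. Mex3a stood at 98.8 and 119 (WT) and 14.6 and 21.3 (cKO) scaled TPM in early libraries and at 88.9 and 90.0 (WT) and 11.0 and 13.2 (cKO) in late ones, so no cKO library reached a WT one. The cKO libraries were lower by limma, with a change of -2.55 log2 (SE 0.18, adjusted p = 0.00459) among early and -2.80 log2 (SE 0.18, adjusted p = 0.00282) among late ones. Without WT early replicate 1 or 2 the early adjusted p was 0.0807 or 0.0501, and without WT late replicate 1 or 2 the late one was 0.0902 or 0.0946. The genotype tag of WT early replicate 2, at 119, reads cKO where its title reads WT, and the title was followed. Sensory neuron and sustentacular cell markers were present (10 of 10 and 7 of 7 averaged at least 1 TPM), while the sperm markers Prm2, Tnp2 and Acrv1 were at a mean of at most 0.152 scaled TPM.

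RFX factors bind the X-box, a motif made of inverted GTTGCC-like arms, near the start of many ciliary genes. RefSeq promoter windows on GRCm38.p6, from 250 bases before to 50 after a start, were found for 35 of the 39 genes, all but Rsph1, Rsph4a, Dnaaf1 and Foxj1. The strict form, GTTNCC and GGNAAC with 2 bases between them, searched on both strands, matched 0 of the 35, and 0.529% of 27025 genes. The single arm GTTGCC was present in 16 of 35 (45.7%), against 14.1% of genes. Of the members with a window, it was in 8 of the 11 whose level rose in late polysomes (below), 2 of the 6 whose level fell and 4 of the 14 that passed in neither direction. Over all tested genes with a window the shares were 15.3%, 14.9% and 13.5%, and with so few members the split is a description, with no test. Looser forms, chosen after the windows were seen, of GTTNC and GGCAAC matched 3 members with 2 bases between the arms (0.411% of genes) and 4 with 3 bases (0.503%). They contain the arm GGCAAC, the reverse complement of GTTGCC, and so are not separate from it. The forkhead form TGTTTAC, of the class that Foxj1 binds, was in 2 of 35 (Tekt3 and Dnah17), or 5.71%, against 4.05% of genes. The windows below are examples from members of different roles, taken only from matches that end before the start. The paired arms of Rsph3b and Tekt4 lie after their starts and are not shown. Capitals mark the match, and a further GGCAAC of Spag16 is left in lower case. Each window reads 5′ to 3′ on the gene's strand, and the last 2 show a single arm.
Hydin: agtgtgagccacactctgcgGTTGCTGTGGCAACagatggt
Spag16: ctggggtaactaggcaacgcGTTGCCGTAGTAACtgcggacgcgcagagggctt
Tekt2: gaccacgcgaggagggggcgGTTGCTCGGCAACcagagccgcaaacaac
Dnaic2: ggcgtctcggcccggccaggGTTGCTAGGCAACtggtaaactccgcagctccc
Dnaaf2: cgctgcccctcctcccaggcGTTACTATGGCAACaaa
Drc1: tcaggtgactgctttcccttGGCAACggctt
Dnah10: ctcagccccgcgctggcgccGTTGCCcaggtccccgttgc

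On GRCm38.p6 these windows lie at chr8:110266936-110266976 (Hydin, plus strand), chr1:69826847-69826900 (Spag16, plus), chr4:126325689-126325737 (Tekt2, minus) and chr11:114727366-114727418 (Dnaic2, plus). The remaining 3 are chr12:69198430-69198466 (Dnaaf2, minus), chr5:30281362-30281392 (Drc1, plus) and chr5:124725045-124725084 (Dnah10, plus). The paired arms of Hydin began 21 bases before its start, those of Dnaaf2 17, Tekt2 29 (from the nearer of the 2 starts, of 3 listed, whose windows hold them), Dnaic2 33 and Spag16 103. A match is only a run of letters and says nothing of binding in this tissue.

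Levels differed widely among the members, and subunits of 1 machine did not share a level. Rsph9 (mean 208 scaled TPM over the 8 libraries) and Rsph1 (195), both radial spoke head proteins, were at the percentiles 95.2 and 94.8 of all tested genes. Rfx3 (124), Foxj1 (119), the nexin-dynein gene Drc1 (90.7) and the tektin Tekt1 (70.0) came next. Heavy chains were low per length: Dnah11 stood at 18.1, Dnah5 at 8.71, Dnah9 at 6.90 and Dnah6 at 4.83, and the other 5 tested ones at 1.49 to 3.07. Because their coding sequences are long, 39 to 1712 inferred reads per library still lay behind each tested heavy chain. Of the 4 members below 1 TPM, Dnah7a (mean 0.957 scaled TPM) lay just under that limit and Tekt5 (1.34) just above it. Dnah17 (0.252) is known mainly as a sperm outer arm chain, Spag6l (0.321) had 0 to 9 reads per library, and Rsph6a, a spoke gene of the testis, was above 0 in only 1 library. Dnah7a and Dnah7b, Rsph3a and Rsph3b, and Spag6 and Spag6l are near-identical copies, so how reads were divided within each pair is uncertain.

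**Figure D1:**
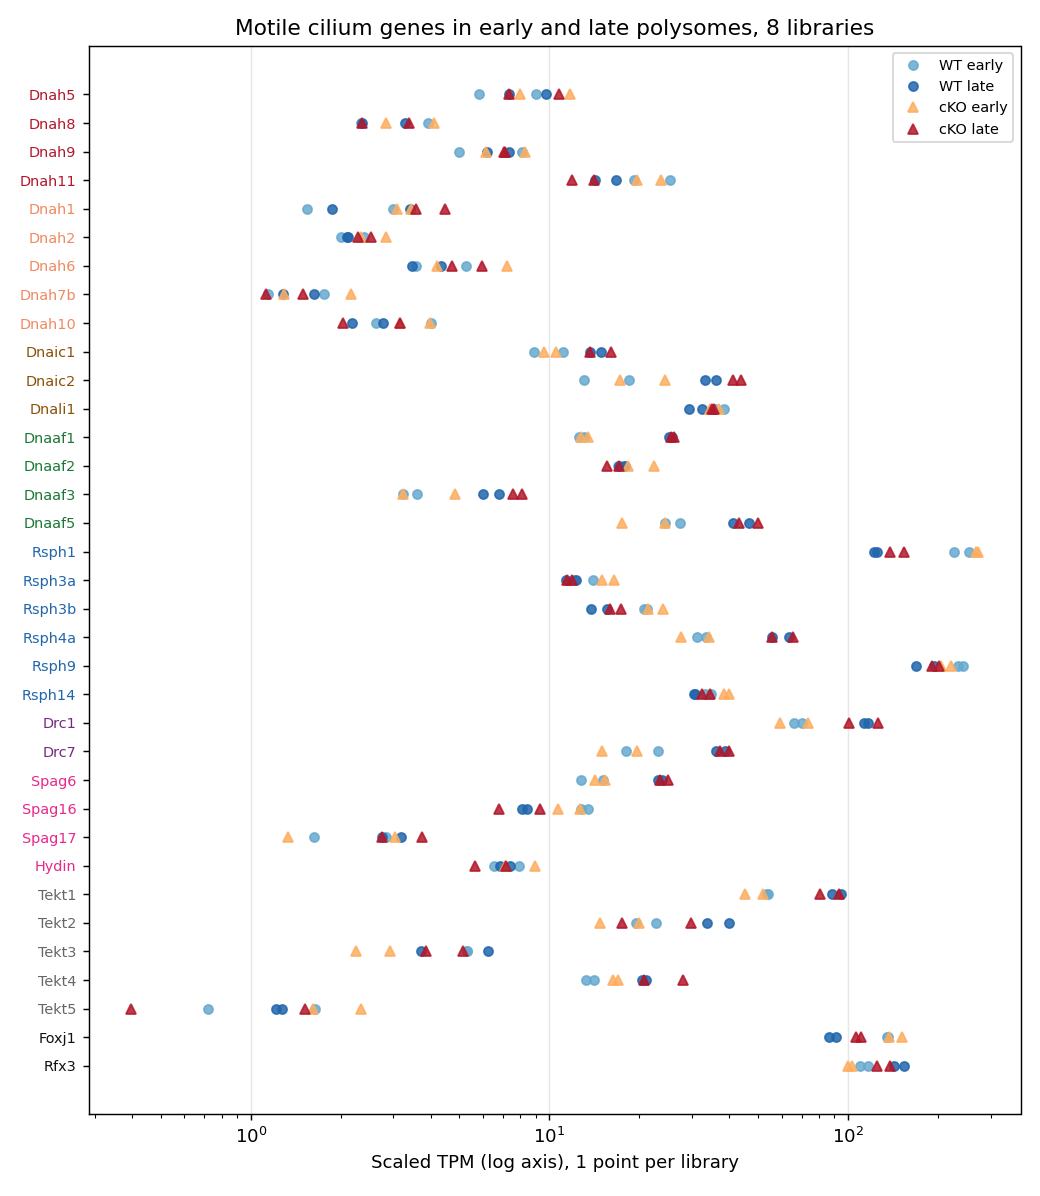
Scaled TPM of the 35 tested members (log axis) in each of the 8 libraries, 1 point per library, coloured by fraction and shaped by genotype. Rsph1 and Rsph9 sit highest; for Dnaic2, Dnaaf1 and Rsph4a all late points lie right of all early points, and for Rsph1 all lie left.

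The comparison of late with early polysomes asked where on the gradient each transcript sat. Levels were shares of a library, so a rise or fall was relative to the other transcripts of that fraction, and not an amount of RNA. Averaged over genotypes, 21 of 35 members (60%) passed limma's adjusted p of 0.05, near the 68.9% of all genes tested. Their level was higher in late polysomes for 13 (34.3% of all genes) and lower for 8 (34.6%). With TPM as deposited, unscaled, the split was 13 higher and 5 lower. The median over all genes also moved up without scaling, by 0.10, and the split over all genes is not given for that setting. The unscaled split is thus not read as a lean of the members. The median change was 0.03 log2 over the members and -0.01 over all genes, the latter held near 0 by the scaling. Unscaled, these medians were 0.13 and 0.09. The scaled median over the members moved to 0.18 without WT early replicate 1, to -0.10 without WT early replicate 2 and to -0.08 without cKO early replicate 2. Late libraries lay above every early library for 12 members (31.5% of all genes) and below every one for 6 (30.9%). The near-zero median covered movement in both directions, which is given next by role.

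**Figure D2:**
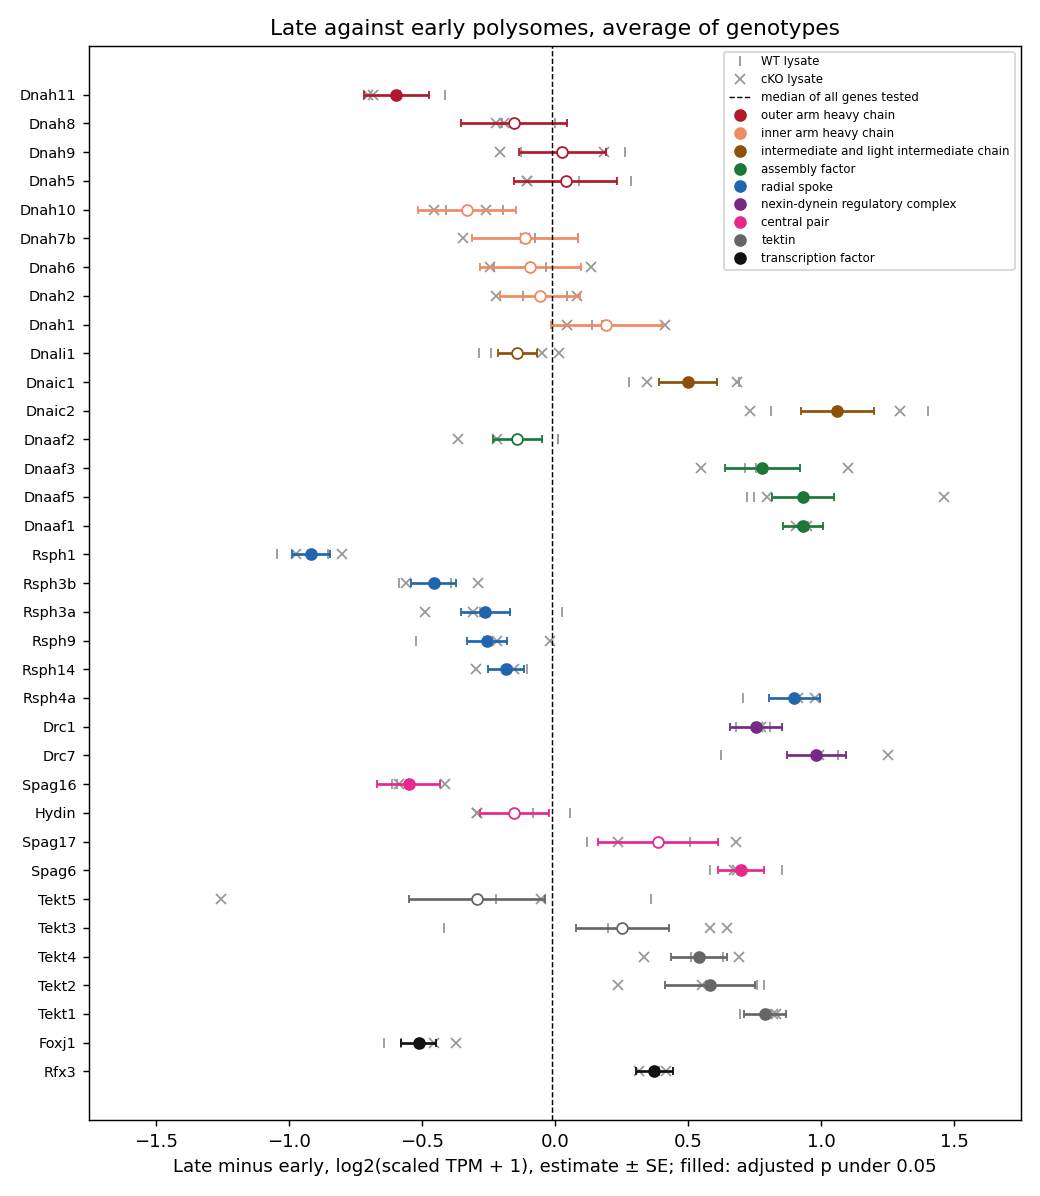
Fitted late minus early change (log2 of scaled TPM + 1, dot, bars SE) of the 35 tested members ordered by role, with each lysate's own change as a grey mark (bar WT, cross cKO); filled dots passed an adjusted p of 0.05. Of the called members, 3 assembly factors, both nexin-dynein genes and 3 tektins lie right of 0, and 5 spoke genes and Dnah11 lie left; the other heavy chains, at -0.33 (Dnah10) to 0.19 (Dnah1), are open.

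Outer arm heavy chains are the motors that drive the beat. Dnah11, a chain of the proximal outer arms, was the 1 heavy chain that passed the threshold in the main test. It spans chr12:117877982-118199043 on the minus strand of GRCm38 and was at 25.4 and 19.2 (WT) and 23.7 and 19.7 (cKO) scaled TPM in early libraries and at 16.7 and 14.2 (WT) and 14.2 and 11.9 (cKO) in late ones. All 4 early libraries lay above all 4 late ones, and late levels averaged 64.6% of early ones. The fall was by 0.60 log2 (SE 0.12, limma adjusted p = 0.00251) and was seen in 4 of 4 lysates. Of its 14458 exonic bases, 642 overlap Cdca7l on the opposite strand, and the counting strand is not stated.

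Dnah5, the other abundant outer arm chain, was at 9.05 and 5.81 (WT) and 11.7 and 7.96 (cKO) in early libraries and at 9.71 and 7.31 (WT) and 10.8 and 7.33 (cKO) in late ones. Within every group replicate 1 was the higher, and the fractions overlapped. Its change was 0.04 log2 (SE 0.19, adjusted p = 0.858). Dnah9, a distal outer arm chain, had a late minus early difference of 0.03 and Dnah8, known mainly from sperm, one of -0.15, neither past the threshold.

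Among the 5 tested inner arm heavy chains 0 passed (68.9% of all genes did), with a median change of -0.09. Dnah6 was at 5.24 and 3.59 (WT) and 7.19 and 4.20 (cKO) in early libraries and at 4.33 and 3.48 (WT) and 5.93 and 4.70 (cKO) in late ones, with overlapping fractions. Dnah1, an inner arm chain, was at 3.01 and 1.55 (WT) and 3.43 and 3.10 (cKO) in early libraries and at 3.42 and 1.88 (WT) and 3.58 and 4.46 (cKO) in late ones. It was a little higher in late fractions in 4 of 4 lysates, but its change of 0.19 log2 did not pass. Dnah10, another inner arm chain, was lower in late fractions in 4 of 4 lysates, at -0.33 log2 (adjusted p = 0.141). It passed only in the test on inferred reads with limma voom, at -0.43 (adjusted p = 0.0368).

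The intermediate chains, which anchor outer arm motors to the doublet, moved the other way from Dnah11. Dnaic2 (chr11:114727408-114757889, plus strand) was at 18.5 and 13.0 (WT) and 24.3 and 17.2 (cKO) scaled TPM in early libraries and at 33.2 and 36.1 (WT) and 41.1 and 43.8 (cKO) in late ones. Every late library exceeded every early one, and the mean was 2.11-fold higher. The rise of 1.06 log2 (SE 0.14, limma adjusted p = 0.000185) was the highest of the 35 members. Its partner Dnaic1 rose by 0.50 (SE 0.11, adjusted p = 0.00319). Dnali1, an inner arm light intermediate chain, was at 38.4 and 35.9 (WT) and 34.5 and 36.9 (cKO) in early libraries and at 32.3 and 29.3 (WT) and 34.9 and 35.7 (cKO) in late ones. Its fractions overlapped, and its change of -0.14 did not pass.

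Dynein assembly factors were called higher in late polysomes in 3 of 4 cases (34.3% of all genes). Dnaaf5, a HEAT-repeat protein needed to assemble arms, was at 24.5 and 27.3 (WT) and 24.4 and 17.5 (cKO) in early libraries and at 41.1 and 46.5 (WT) and 43.2 and 49.9 (cKO) in late ones. Dnaaf1, a leucine-rich repeat protein, was at 12.5 and 13.0 (WT) and 13.5 and 12.7 (cKO) in early libraries and at 25.2 and 25.8 (WT) and 26.1 and 25.5 (cKO) in late ones. For both genes the fractions were fully apart, and the lysates of Dnaaf1 agreed closely, with changes of 0.91 to 0.95. Both rose by 0.93 log2 (SE 0.12 and 0.08, adjusted p = 0.000151 and 2.63e-05 by limma). Dnaaf3 rose by 0.78 (SE 0.14, adjusted p = 0.0012). Dnaaf2, a PIH-domain factor, differed from these, at -0.14 (not passed), and 1107 of its 3390 exonic bases overlap a non-coding gene on the opposite strand. On its own strand, 757 and 700 of its exonic bases overlap the protein-coding models Gm49383 and Gm49384, so its count is uncertain under any strand setting. Of Dnaaf1's 2821 exonic bases, 584 overlap Taf1c on the opposite strand.

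Of the 6 tested radial spoke genes, 5 were called lower in late polysomes (34.6% of all genes) and 1 higher (34.3%). Of these falls, only those of Rsph1 and Rsph3b held in all 17 alternatives run. Rsph1 (chr17:31255019-31277383, minus strand) was at 226 and 254 (WT) and 269 and 273 (cKO) scaled TPM in early libraries and at 125 and 123 (WT) and 154 and 139 (cKO) in late ones. Late libraries were at 52.9% of early ones on average, without overlap, a fall by 0.92 log2 (SE 0.07, limma adjusted p = 2.36e-05). Rsph4a, a partner of Rsph1 in the spoke head, was at 33.6 and 31.2 (WT) and 34.1 and 27.7 (cKO) in early libraries and at 55.4 and 63.2 (WT) and 65.3 and 55.5 (cKO) in late ones. It thus moved opposite to Rsph1 in 4 of 4 lysates, rising by 0.90 log2 (SE 0.10, adjusted p = 7.28e-05).

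Rsph9, the third spoke head protein here, was at 243 and 234 (WT) and 222 and 205 (cKO) in early libraries and at 169 and 194 (WT) and 191 and 202 (cKO) in late ones. Early libraries were above late ones in both genotypes, but the gap in cKO was narrow. It fell by 0.26 log2 (SE 0.07, limma adjusted p = 0.0139), a call lost with TPM as deposited (-0.14, adjusted p = 0.157), with quantile normalization (-0.12, 0.209) and without WT late replicate 1 (-0.20, 0.0589). Rsph3b, a spoke stalk protein, was at 21.2 and 20.8 (WT) and 24.0 and 21.4 (cKO) in early libraries and at 13.8 and 15.6 (WT) and 15.9 and 17.3 (cKO) in late ones. It fell by 0.46 log2 (SE 0.09, adjusted p = 0.00151), with fractions apart.

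Its near-copy Rsph3a fell by 0.26 (SE 0.09, adjusted p = 0.0336) and Rsph14 by 0.18 (SE 0.07, adjusted p = 0.0368), both with overlapping fractions. With lysate as a block the adjusted p was 0.0600 for Rsph3a and 0.0681 for Rsph14. Rsph3a kept its call without WT early replicate 1 or cKO early replicate 2, and without any other single library its adjusted p was between 0.0528 and 0.113. Rsph14 kept its call only without cKO late replicate 2, and was otherwise between 0.0562 and 0.103. Rsph14 was at -0.07 (adjusted p = 0.407) and Rsph3a at -0.15 (0.187) with TPM as deposited.

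Both nexin-dynein genes were called higher in late polysomes, as were 34.3% of all genes. Drc1, a scaffold subunit, was at 70.3 and 66.0 (WT) and 73.4 and 59.1 (cKO) in early libraries and at 113 and 116 (WT) and 126 and 101 (cKO) in late ones. Drc7 was at 23.1 and 18.1 (WT) and 19.6 and 15.03 (cKO) in early libraries and at 36.2 and 38.8 (WT) and 40.0 and 37.2 (cKO) in late ones. No late library of either gene fell to an early level. The rise was 0.76 log2 (SE 0.10) for Drc1 and 0.98 (SE 0.11) for Drc7, with limma adjusted p of 0.000189 and 9.67e-05.

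Central pair genes divided. Spag6, an armadillo-repeat protein of the C1 microtubule, was at 15.1 and 12.8 (WT) and 15.3 and 14.2 (cKO) in early libraries and at 23.1 and 23.9 (WT) and 25.0 and 23.4 (cKO) in late ones. Spag16, a WD-repeat protein, was at 13.4 and 12.7 (WT) and 12.7 and 10.7 (cKO) in early libraries and at 8.44 and 8.11 (WT) and 9.30 and 6.81 (cKO) in late ones. The fractions were apart for each gene, in opposite directions. Spag6 rose by 0.70 log2 (SE 0.09, adjusted p = 0.000151 by limma), while Spag16 fell by 0.55 (SE 0.12, adjusted p = 0.00328). Hydin, a giant protein of the C2 microtubule, was at 7.88 and 6.54 (WT) and 8.97 and 7.12 (cKO) in early libraries and at 7.39 and 6.83 (WT) and 7.15 and 5.63 (cKO) in late ones, with overlap. Its change of -0.15 (adjusted p = 0.321) did not pass. Spag17 was at 0.39 log2, past the threshold only without cKO early replicate 1 (0.58, adjusted p = 0.0441).

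Of the tektins, 3 of 5 were called higher in late polysomes (34.3% of all genes). Tekt1 was at 53.9 and 53.4 (WT) and 52.0 and 45.0 (cKO) in early libraries and at 88.1 and 94.4 (WT) and 93.2 and 80.3 (cKO) in late ones, with no overlap. It rose by 0.79 log2 (SE 0.08, limma adjusted p = 5.48e-05), and Tekt4 rose by 0.54 (SE 0.10, adjusted p = 0.00171). Tekt2 was at 22.7 and 19.5 (WT) and 20.0 and 14.7 (cKO) in early libraries and at 39.9 and 33.6 (WT) and 29.7 and 17.5 (cKO) in late ones, where cKO late replicate 2 fell among the early values. Its rise of 0.58 log2 (SE 0.17, adjusted p = 0.0141) was lost without WT early replicate 2, WT late replicate 1 or cKO early replicate 2 (adjusted p of 0.0514, 0.0515 and 0.0524). A non-coding gene, Gm12945, overlaps 396 of its 1900 exonic bases on the opposite strand. Tekt3 and Tekt5 did not pass, and Tekt5 rested on 2 to 17 reads per library.

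The transcription factors also parted. Foxj1 was at 135 and 136 (WT) and 138 and 152 (cKO) in early libraries and at 86.2 and 91.2 (WT) and 106 and 110 (cKO) in late ones. Rfx3 was at 110 and 117 (WT) and 100 and 103 (cKO) in early libraries and at 142 and 154 (WT) and 125 and 138 (cKO) in late ones. Every late library was below every early one for Foxj1 and above for Rfx3. Foxj1 fell by 0.51 log2 (SE 0.06, adjusted p = 0.000174) and Rfx3 rose by 0.37 (SE 0.07, adjusted p = 0.00127), both by limma.

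Taken by genotype, 19 members passed in WT (54.8% of all genes) and 18 in cKO (58.1%), with 13 (27.1%) and 12 (28.9%) higher in late fractions. Without WT late replicate 2, whose absence leaves 1 WT late library assumed to vary like the other groups, the WT count was 12. Of the 21 averaged calls, 17 held in all 17 alternatives run, namely 12 that rose and 5 that fell (Rsph1, Dnah11, Spag16, Foxj1 and Rsph3b).

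Genes of motile cilia outside the naming rule also moved both ways. Of 53 listed, 48 were tested, and their median change was 0.34. In late polysomes 25 of the 48 rose (34.3% of all genes) and 9 fell (34.6%). The nexin-dynein genes Ccdc65 and Gas8 rose by 1.14 (SE 0.07) and 0.91 (SE 0.06), and Ccdc40, which with Ccdc39 sets the spacing of arms and spokes along the doublet, rose by 1.20 (SE 0.10). The outer arm docking genes Ccdc114, Ccdc151, Armc4 and Ttc25 rose by 0.51 to 0.85. Dynein light chains were on the other side: Dnal1 fell by 0.78 (SE 0.09) and Dynlrb2 by 1.77 (SE 0.12). Across all genes, those with the shortest coding sequences (111 to 555 nt) had a median change of -1.12. The changes of these genes outside the rule were not set against genes of their coding length. The part of length in the light chains' falls was thus not tested. Markers of respiratory multiciliated cells, a separate list that also holds Dynlrb2, had a median change of -1.24. Of the 9 markers tested, 8 fell (34.6% of all genes), and the exception Cdhr3 was at 0.26. Their summed level was 901 and 957 (WT) and 1086 and 1113 (cKO) scaled TPM in early libraries and at 406 and 362 (WT) and 521 and 379 (cKO) in late ones. These markers were not set against genes of their coding length either, so the part of length in their falls was not tested. The markers' part in the members' changes was not tested.

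Gradient position followed coding length across the table, which bears on genes as unequal in length as these. Over 14687 genes with a GENCODE coding sequence, Spearman's rank correlation between coding length and late minus early change was 0.633, a description across genes of shared libraries. Over the 35 members it was 0.02, and between -0.06 and 0.08 when single libraries were left out. Heavy chains and Hydin have coding sequences of 12204 nt or more, and without these 10 genes the rank correlation was 0.44 over 25 members. Of 10 equal length bins of all genes, the longest had a median change of 0.50 (quartiles 0.27 and 0.73), and each of the 10 lay below it.

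The table held 36 other genes with coding sequences at least as long as the shortest tested heavy chain. Their median change was 0.14, with a range of -0.41 to 0.78, and 8 were called higher and 1 lower. Of the heavy chains and Hydin, 9 of 10 were below that median, 0 were called higher and 1 was called lower, and Dnah11 lay below all 36. The sets were not matched for level. Most of the 36 averaged more than Dnah11 (18.1 scaled TPM), the highest of the 10, and changes of low genes are understated on this scale. Set against the median of its own length bin, Dnah11 stood at -1.09 log2, Dnah10 and Spag16 at -0.83 and Rsph3b at -0.74. Tekt1 and Dnaic2 stood at 0.78 and Dnaaf1 at 0.65. Rsph1 was at -0.65 against genes of its length, while Rsph9, at 0.01, sat with them. Rfx3 likewise sat with genes of its own length, at 0.01, and Dnaic1 was at 0.13, while Foxj1 was at -0.52. In all, 16 members were above and 19 below the median of their length bin.

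**Figure D3:**
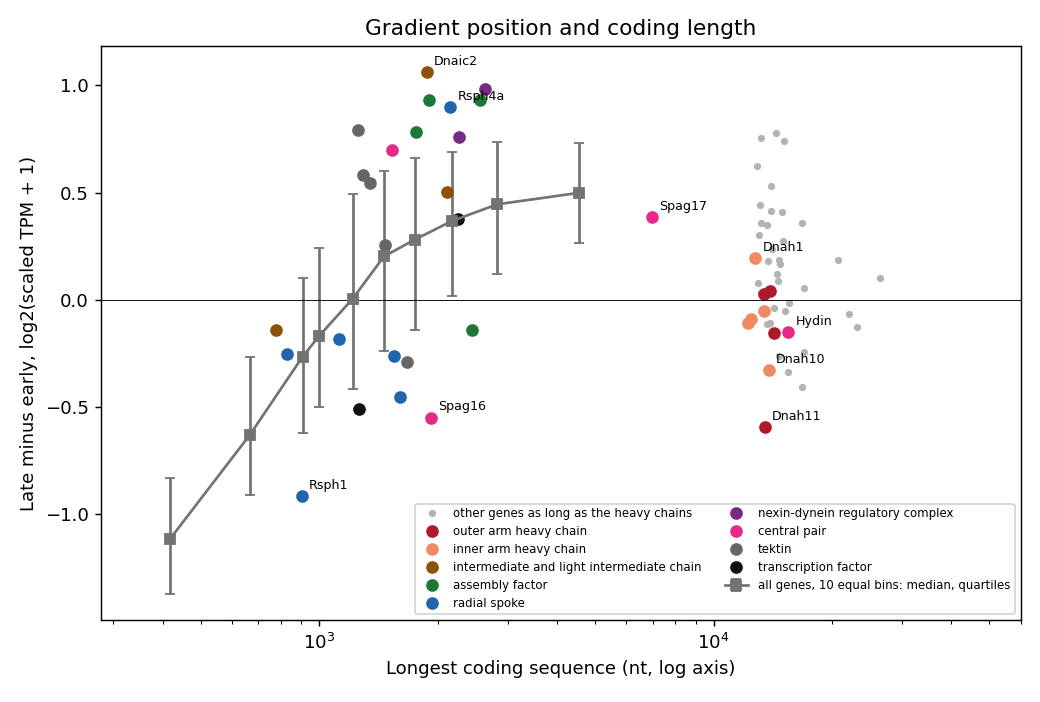
Late minus early change (log2 of scaled TPM + 1) against the longest coding sequence (nt, log axis): coloured points are the tested members by role, small grey points the 36 other genes as long as the heavy chains, and squares with bars the medians and quartiles of all genes in 10 equal bins. The squares climb from left to right, while 9 of the 10 members at the far right lie below the 0.14 median of the grey points.

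Replicates of a group differed in a patterned way for the longest members. Heavy chains and Hydin were higher in replicate 1 than in replicate 2 for 10 of 10 genes in WT early, cKO early and WT late, and for 7 of 10 in cKO late libraries. Median differences were 0.45, 0.34, 0.23 and 0.26 log2 in that order. The 36 other equally long genes had medians of 0.43, 0.32, 0.21 and 0.20 for the 4 groups (WT early, cKO early, WT late, cKO late), with 34, 34, 32 and 28 of 36 higher in replicate 1. Genes in the shortest bin differed by -0.14, -0.12, 0.15 and 0.26. In each group the heavy chains and the other long genes thus had close medians, higher in replicate 1. Multiciliated cell markers differed by -0.06, -0.03, 0.20 and 0.59. The labels tie no day or batch to replicate numbers.

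**Figure D4:**
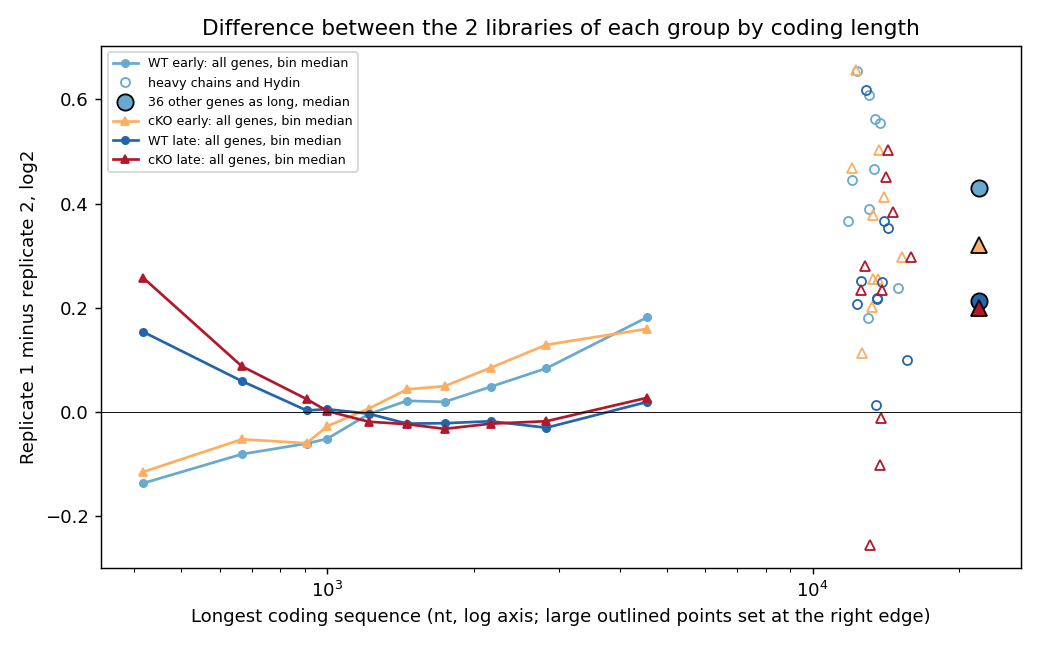
Difference between replicate 1 and replicate 2 (log2 of scaled TPM + 1) within each group against coding length (nt, log axis): lines join bin medians of all genes, open points are heavy chains and Hydin, drawn slightly apart by group, and large outlined points at the right edge are medians of 36 other equally long genes. Early groups slope upward with length, and most open points lie between 0.2 and 0.65.

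Loss of Mex3a was compared within each fraction, and then on lysates, averaging the log2 levels of their fractions. In early polysomes 0 of 35 members passed (0.0435% of all genes did), with 1 at an unadjusted p under 0.05, and limma voom on inferred reads called 0 (0.0746% of all genes). In late polysomes 0 passed (0.0124% of all genes), with 3 at an unadjusted p under 0.05 and 0 by voom (0.0933%). On lysate means 0 passed (0.00621% of all genes), with 4 at an unadjusted p under 0.05, while voom called 0 members and 0.361% of genes. The median over members was 0.09 among early libraries, 0.04 among late ones and 0.06 on lysate means, and that over all genes was 0.005, -0.001 and 0.001. cKO libraries were above both WT ones for 8 members in early (19.6% of all genes) and 10 in late polysomes (20.5%), and below for 6 (17.6%) and 3 (20.1%).

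Tekt3 had the lowest early p. It was at 5.29 and 5.29 (WT) and 2.92 and 2.25 (cKO) scaled TPM in early libraries and at 6.23 and 3.72 (WT) and 5.14 and 3.87 (cKO) in late ones. Only the early genotypes were apart, at -0.82 log2 (SE 0.25, limma adjusted p = 0.672), on 16 to 48 reads per library. In late polysomes the lowest p was that of Foxj1, whose cKO late libraries at 106 and 110 lay above 86.2 and 91.2 in WT. This was 0.29 log2 (SE 0.09, adjusted p = 0.424). Tekt2 (-0.66, SE 0.24, adjusted p = 0.468) and Rsph1 (0.24, SE 0.10, adjusted p = 0.522) followed in late polysomes.

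On lysate means Dnaic2 had the lowest p, at 0.33 log2 (SE 0.11, limma adjusted p = 0.392), ahead of Rsph1 (0.21, adjusted p = 0.395), Foxj1 (0.19, 0.414) and Tekt3 (-0.46, 0.439). All 5 inner arm heavy chains had estimates above 0, with a median of 0.15, and 8109 of all 16097 genes were above 0. Long genes differed together between replicates (above), so these 5 may not be separate observations. Dnah1 had the highest of these, at 0.45, its cKO libraries exceeding the WT ones of the same fraction, but it too did not pass. Marker levels of multiciliated cells had summed means of 656 in WT and 774 in cKO libraries, and their part was not tested. The members summed to 1225 and 1253 in that order, and the motile cilium genes outside the rule to 1812 and 1793. Markers of respiratory secretory cells summed to 6166 and 7263, of sustentacular cells to 9282 and 10155, and of mature sensory neurons to 10161 and 9748. On simulated libraries of this size, 199 of 200 genes changed 3-fold were recovered in the early comparison, 198 in the late one and 200 on lysate means. The changed genes averaged at least 5 TPM, and 3-fold exceeds every member's estimate. Planting 200 changed genes eases the adjustment of p-values. In the real early, late and lysate-mean comparisons 7, 2 and 1 of all genes passed. Besides read counting error, noise had 1 fixed spread, not matched to the members, and was drawn for each gene apart. The shared replicate differences of long genes were thus not simulated. Recovery of a lone changed gene, of changes as small as the members', or of lower genes, was not tried.

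**Figure D5:**
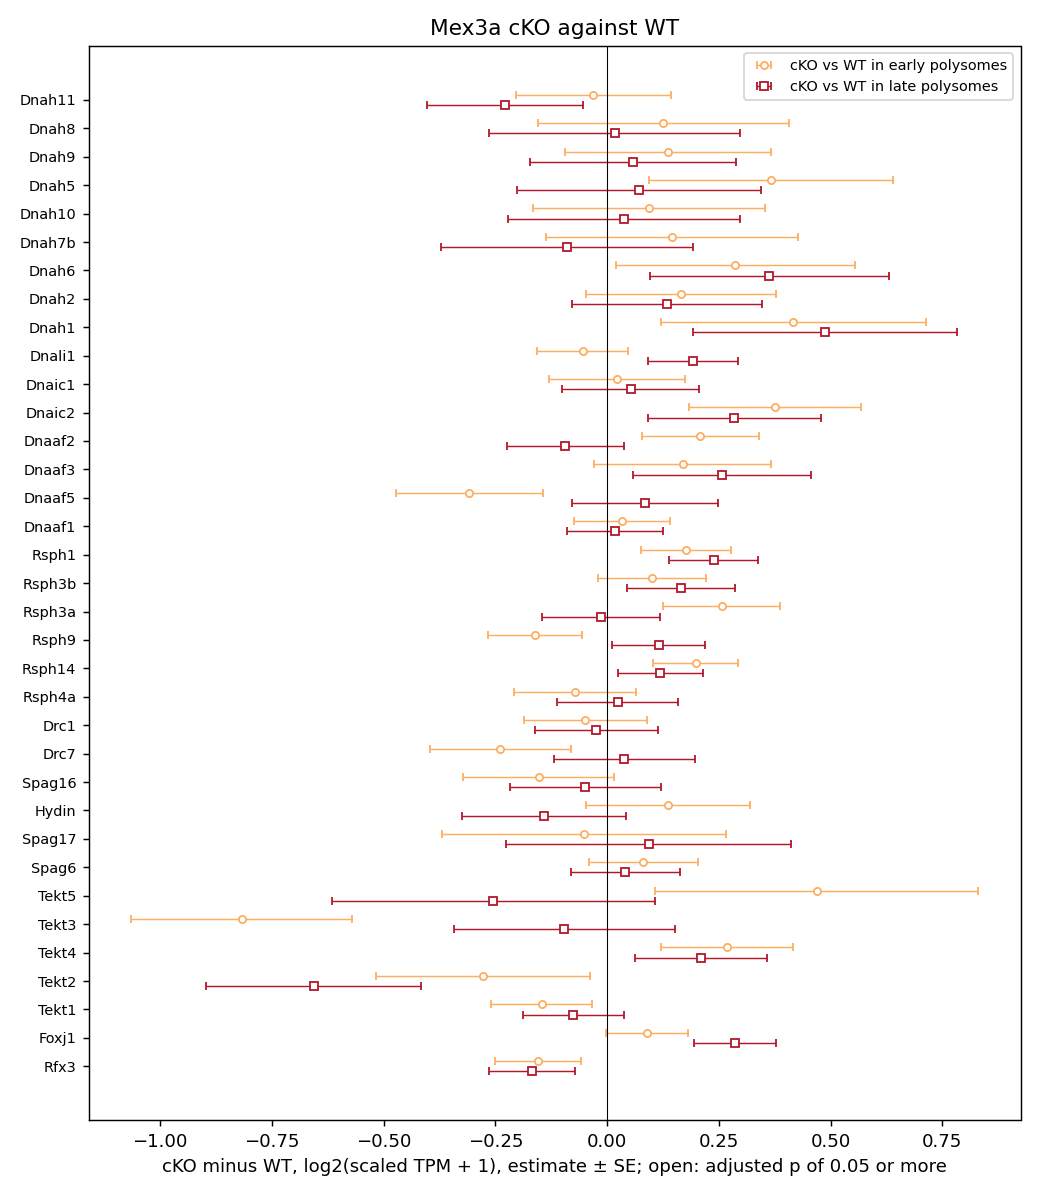
cKO minus WT estimate (log2 of scaled TPM + 1, bars SE) of the 35 tested members in early (circles) and late (squares) polysomes, ordered by role. All symbols are open since 0 members passed an adjusted p of 0.05; Tekt3 in early and Tekt2 in late polysomes lie farthest left.

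Whether loss of Mex3a altered gradient position was asked by the interaction of genotype and fraction. Of the 35 members 0 passed (0.00621% of all genes), 0 had an unadjusted p under 0.05, and voom called 0. The lowest p was that of Tekt3, at 0.72 log2 (SE 0.35, limma adjusted p = 1.0), whose late minus early change was -0.11 in WT and 0.61 in cKO. Late minus early changes stood side by side in WT and cKO at -0.95 and -0.89 for Rsph1, 0.85 and 0.95 for Rsph4a, and 1.11 and 1.02 for Dnaic2. For Dnah11 they were -0.50 and -0.69. These pairs did not differ past the threshold in the interaction test, which does not show that they are equal.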

How the data were processed

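The members and gene lists were chosen with earlier results of these data known. The authors deposited 1 table of TPM per gene symbol, with 1 column per library; the counting method, its strand setting and the annotation are not given in the sources used here. The submitters' processing notes name the genome build mm10 and the tools FastQC, cutadapt, STAR and DESeq2 without roles. The labels' protocols describe pooling 50 µL of each 350 µL fraction and a stranded low-input kit. The Cre line is not reported here. Groups came from titles.

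Between libraries, levels were scaled by median ratios, with factors of 0.931 to 1.06. The 16097 genes whose deposited TPM averaged 1 or more entered limma 3.58.1 (R 4.3.3) as log2(scaled TPM + 1), in 1 fit of the 4 groups with a mean-variance trend. Two-sided p-values were adjusted by Benjamini-Hochberg over all genes, with a threshold of 0.05. Fold changes on this scale understate the change of low genes. TPM states no depth; TPM steps gave whole reads for 100% of the 19783 genes above 0 in at least 2 libraries (tolerance 0.001), tested with limma voom as an alternative. The test was tried on simulated data of 16055 genes, where it gave 10, 24 and 29 false calls in the early, late and lysate-mean genotype comparisons and 3 in the interaction.

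All members are accounted for. Values in every library are given for the 2 highest members of each role, the 5 with the largest rise and the 5 with the largest fall, and the lowest p in each genotype comparison. Coding lengths and gene positions came from GENCODE on GRCm38 (39 of 39 members matched), promoter sequences from RefSeq on GRCm38.p6. Library names pair the early and late library of a lysate; the correlation of their deviations from group means was 0.0862 over all tested genes in WT lysates and 0.0502 in cKO lysates, and over the 35 members 0.516 and 0.114. Alternatives were pseudocounts of 0.5 and 0.1, no filter, a minimum mean TPM of 5, unscaled TPM, quantile normalization, no trend, leaving out each library, blocks, only the 4 libraries compared, and transcript length, the last added after seeing the data. Figures were drawn with matplotlib 3.10.9.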

Additional observations from a re-analysis of the deposited data

Results flagged for a closer look

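For 2 of 35 members (5.71%) the lysates of the genotypes had late minus early differences of opposite sign, as for 2.7% of all 16097 genes. Dnah5 was higher in late polysomes in both WT lysates (0.09 and 0.29 log2) and lower in both cKO lysates (-0.11 and -0.11), and its interaction estimate was -0.29. Dnaaf2 differed by only 0.01 in both WT lysates, well within its error, and was lower in both cKO lysates (-0.36 and -0.22), with an interaction of -0.30. Neither interaction passed in limma (adjusted p = 1.0 for each), so a difference between genotypes was not shown.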

How the results depend on the processing

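No alternative run called a member in a genotype or interaction comparison. With lysate as a replicate block the late against early counts were 19 on average, 19 in WT and 18 in cKO; with replicate number as a block, genotype counts were 0. Same-numbered early libraries of WT and cKO correlated at 0.331 and late ones at 0.142 over all genes (0.312 and 0.334 over members), but no label says that the numbers pair lysates. Leaving out single libraries gave counts of 17 to 20 on average, 12 to 19 in WT and 14 to 18 in cKO, member medians of -0.10 to 0.18 (late against early) and -0.03 to 0.14 (genotype on lysate means), and a rank correlation with coding length of -0.0555 to 0.0812. This correlation was negative without WT early replicate 2 (-0.0437), cKO early replicate 2 (-0.0555) or cKO late replicate 1 (-0.0367), and with transcript length (-0.0751). With a mean TPM of at least 5, which leaves 26 members, the rank correlation was 0.20 and the member median 0.21. Mex3a ranged over -2.81 to -2.30 in early and -2.92 to -2.67 in late polysomes without single libraries, and with only the 4 early libraries it was -2.55 (limma adjusted p = 0.0845). The cause of these shifts was not tested, and no share of all genes is given beside the late against early counts under these settings. Among tested members, Tekt5 (2 to 17 inferred reads per library) and Tekt3 (16 to 48) had the fewest reads.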
